A study of Mus musculus with 4 samples.

Results

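Fibroblasts are recognised by a set of mesenchymal genes, and cells of other lineages by genes that fibroblasts usually keep silent. This account covers 36 such genes in mouse L cells: 19 fibroblast and mesenchymal genes and 17 markers of smooth muscle, epithelium, melanocytes, fat, endothelium and blood. The members were all probe sets that the platform annotation pairs with 1 gene among these 36, which gave 73 of the 45037 probe sets that are not controls. Every gene had at least 1 probe set, and the series names 18193 genes in all by this route.

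The cells were LMTK-, mouse fibroblasts of the L cell family without thymidine kinase activity. The 2 MTf lines, MTf 4 and MTf 6, were stably transfected with the pCI-neo plasmid, whose cytomegalovirus promoter drives the insert, carrying the cDNA of mouse melanotransferrin, a membrane-anchored iron-binding protein. The 2 vector lines, vector 1 and vector 2, carried the empty plasmid, so all 4 lines share the parent line, the plasmid and its neo gene. The labels call the MTf lines clones and do not say whether the vector lines are clones or separate cultures. Each line was hybridised once to an Affymetrix Mouse Genome 430 2.0 Array, and values are array signals on a linear scale.

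As background, mesenchymal cells are held together by vimentin filaments and respond to PDGF and FGF through tyrosine kinase receptors on their surface. Transcription factors of the Snail, Zeb and Twist families favour this state and repress epithelial genes such as E-cadherin, largely through short DNA motifs called E-boxes. Fibroblast lines can also carry part of the fat cell or smooth muscle programme, which share the same mesenchymal origin.

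Meltf, the gene of the transgene product, served as the check of the labels. It measured 1519 in MTf 4 and 1885 in MTf 6, against 265 in vector 1 and 274 in vector 2 (limma, adjusted p = 0.0912). With MTf 4 left out limma's adjusted p was 0.00602, and under the other alternatives it lay between 0.0679 and 0.445. The trimmed mean signal was 1000.01 on each of the 4 arrays, with median signals between 208.7 and 214.4. In bulk RNA, fewer cells of a type and less RNA per cell cannot be told apart.

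No detection calls were used, so a background bound was set on each array from 44 probe sets of olfactory receptor genes, which a fibroblast line is not known to use. The bound was the 95th percentile of their signals: 223 in MTf 4 and 198 in MTf 6, and 290 in vector 1 and 252 in vector 2. A gene counts as above background in a line if any of its probe sets exceeds that line's bound. A signal under the bound may still hold a low level of RNA. Whether each probe set reads its transcript well was not tested. Signals of different probe sets are not levels that can be ranked against each other, since probes bind with different strength.

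Of the 36 genes, 18 were above background in all 4 lines, 4 in some lines and 14 in none. Over all named genes 50.9% were above background in all 4 lines and 35.0% in none, so the members as a whole were detected about as often as any gene on the array. The mesenchymal genes divided into 11 above background in all lines, 2 in some and 6 in none. The markers of other lineages divided into 7 in all lines, 2 in some and 8 in none. The 14 genes in no line had 21 probe sets, with signals between 5.70 and 182.5.

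**Figure D1:**
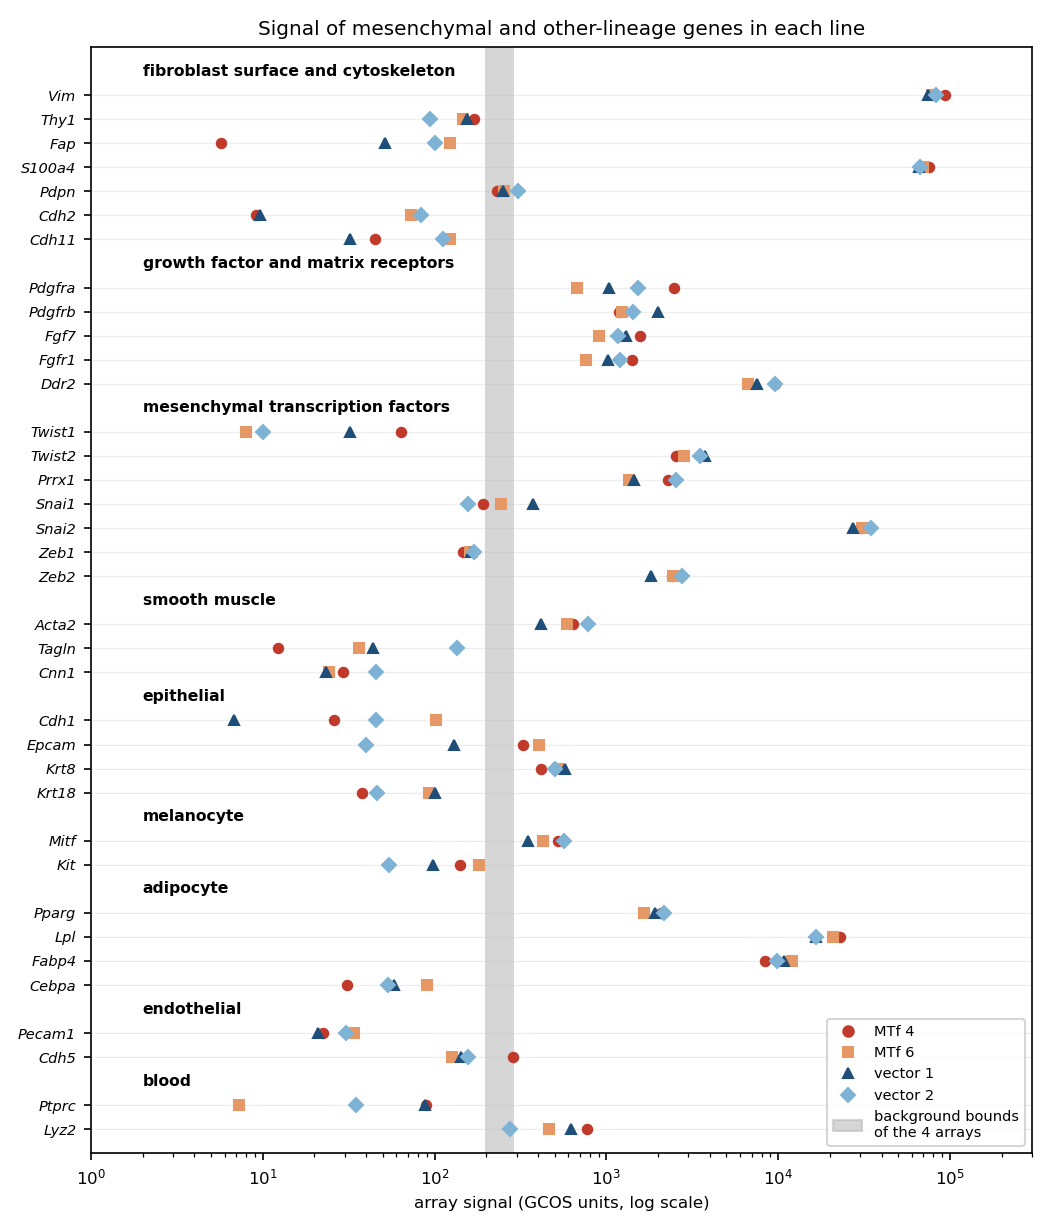
Signal of each of the 36 genes by its brightest probe set on average, 1 point per line, on a log axis in array signal units. The grey band spans the background bounds of the 4 arrays, 198 to 290. Vim, S100a4, Snai2, Lpl, Fabp4 and Ddr2 stand far to its right in all 4 lines, while Thy1, Twist1, Zeb1, Cdh1, Kit, Cebpa and Pecam1 stand to its left.

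The structural and surface genes of fibroblasts showed an uneven picture. Vim, vimentin (probe set 1450641_at), measured 94073 in MTf 4 and 78529 in MTf 6, against 74441 in vector 1 and 83158 in vector 2. S100a4, a calcium-binding protein also known as fibroblast-specific protein (1424542_at), measured 75392 in MTf 4 and 69678 in MTf 6, against 65756 in vector 1 and 66739 in vector 2. Both were thus far above background in every line, as were all 3 Vim probe sets. The groups overlapped for Vim, and for S100a4 each clone was above each vector line.

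The other 5 surface genes were at or near background. Thy1, a surface glycoprotein of many fibroblasts, measured 170.0 in MTf 4 and 147 in MTf 6, against 155 in vector 1 and 94.2 in vector 2, under the bound in each. Fap, fibroblast activation protein, reached at most 122 (MTf 6). Of the mesenchymal cadherins, Cdh2 (N-cadherin) reached at most 83.2 by 2 probe sets and Cdh11 (OB-cadherin) at most 123 by 2 probe sets. Pdpn, podoplanin, stood at the edge of detection, at 232 in MTf 4 and 253 in MTf 6, against 249 in vector 1 and 306 in vector 2. It exceeded the bound in all lines except vector 1.

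The growth factor Fgf7 and the member receptors Pdgfra, Pdgfrb, Fgfr1 and Ddr2 were all above background in all 4 lines, 5 of 5 genes. Pdgfra, the receptor for most PDGF dimers (1421917_at), measured 2464 in MTf 4 and 671 in MTf 6, against 1032 in vector 1 and 1530 in vector 2. The groups overlapped, because the MTf clones held both the highest and the lowest value. The other 2 Pdgfra probe sets had the same highest and lowest line. Pdgfrb, the second PDGF receptor (1436970_a_at), measured 1191 in MTf 4 and 1238 in MTf 6, against 2006 in vector 1 and 1437 in vector 2. Each clone was below each vector line by this probe set, but the second probe set, at 545 in MTf 4 and 278 in MTf 6, against 584 in vector 1 and 458 in vector 2, overlapped.

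Fgf7, keratinocyte growth factor, is a ligand that mesenchymal cells send to epithelium. By its brighter probe set (1422243_at) it measured 1576 in MTf 4 and 901 in MTf 6, against 1294 in vector 1 and 1171 in vector 2. Fgfr1, an FGF receptor of mesenchymal cells (1424050_s_at), measured 1402 in MTf 4 and 766 in MTf 6, against 1017 in vector 1 and 1203 in vector 2. By these probe sets MTf 4 was highest and MTf 6 lowest in both genes. The suffix of the Fgfr1 probe set marks probes that can be shared with other transcripts. The other 2 Fgfr1 probe sets had other orders: 1425911_a_at was lowest in vector 1 (681), and 1436551_at was highest in MTf 6 (297) and lowest in MTf 4 (212). Ddr2, a receptor for fibrillar collagen (1455688_at), measured 9528 in MTf 4 and 6659 in MTf 6, against 7533 in vector 1 and 9601 in vector 2, again with overlapping groups.

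Partner genes of these receptors were taken from a further list of 13 ligands and receptors. Of these, 5 were above background in all lines (Pdgfa, Fgfr3, Fgfrl1, Kitl and Ddr1), 4 in some and 4 in none. Pdgfb and Fgfr4 exceeded the bound in MTf 6 alone, and Pdgfc and Fgfr2 in all lines except vector 2. Pdgfd, Fgf1, Fgf2 and Fgf10 were in none. Pdgfa, a ligand of Pdgfra, measured 1271 in MTf 4 and 1091 in MTf 6, against 888 in vector 1 and 1515 in vector 2. Pdgfc, another PDGF ligand, measured 298 in MTf 4 and 545 in MTf 6, against 404 in vector 1 and 82.7 in vector 2, so that vector 2 alone was under its bound. Kitl, the ligand of the receptor Kit, measured 7507 in MTf 4 and 5778 in MTf 6, against 5881 in vector 1 and 5793 in vector 2, with all 4 of its probe sets above background in all lines. Ddr1, the collagen receptor related to Ddr2, measured 2496 in MTf 4 and 2952 in MTf 6, against 2510 in vector 1 and 2405 in vector 2.

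Among the 7 mesenchymal transcription factors, the members of each family differed in detection. Snai2, the repressor Slug (1447643_x_at), measured 30478 in MTf 4 and 30575 in MTf 6, against 27079 in vector 1 and 34617 in vector 2. The suffix of this probe set marks probes that can bind other transcripts. By 1418673_at Snai2 was instead highest in vector 1 (12729) and lowest in vector 2 (11171). Its relative Snai1 (1448742_at) lay around the bound, at 193 in MTf 4 and 243 in MTf 6, against 375 in vector 1 and 157 in vector 2, above it in MTf 6 and vector 1 alone. Slug was thus far above background in all lines and its relative at the edge of detection, with overlapping groups in both. In the Zeb family of zinc finger repressors, Zeb2 (1422748_at) measured 2419 in MTf 4 and 2447 in MTf 6, against 1821 in vector 1 and 2772 in vector 2. Zeb1 was under the bound in all lines by all 4 of its probe sets, whose signals reached from 19.2 to 169.

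The Twist genes encode basic helix-loop-helix factors of the mesoderm, and here the paralogues stood apart in detection. Each had 1 probe set, and how well it reads its transcript was not tested. Twist2 (1448925_at) measured 2555 in MTf 4 and 2817 in MTf 6, against 3741 in vector 1 and 3484 in vector 2, with each clone below each vector line. Twist1 (1418733_at) measured 64 in MTf 4 and 8 in MTf 6, against 32.3 in vector 1 and 10.1 in vector 2, under the bound everywhere. Prrx1, a homeobox factor of limb and face mesenchyme (1425528_at), measured 2291 in MTf 4 and 1350 in MTf 6, against 1443 in vector 1 and 2539 in vector 2. For Prrx1 the groups overlapped, with MTf 6 and vector 1 low and MTf 4 and vector 2 high.

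The promoters of the Twist paralogues are shown because they differ in detection while belonging to one family. Each line gives the 250 bases before the gene's start from RefSeq, build GRCm38.p6, 5′ to 3′ on the gene's strand, with CG dinucleotides in capitals. Twist1 lies at chr12:33957421-33957670 and Twist2 at chr1:91801211-91801460, both on the + strand.
Twist1: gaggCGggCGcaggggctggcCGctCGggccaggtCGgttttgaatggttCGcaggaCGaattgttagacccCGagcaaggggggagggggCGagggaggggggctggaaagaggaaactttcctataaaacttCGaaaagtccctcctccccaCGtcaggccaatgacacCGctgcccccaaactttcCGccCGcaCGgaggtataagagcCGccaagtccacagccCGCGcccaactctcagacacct
Twist2: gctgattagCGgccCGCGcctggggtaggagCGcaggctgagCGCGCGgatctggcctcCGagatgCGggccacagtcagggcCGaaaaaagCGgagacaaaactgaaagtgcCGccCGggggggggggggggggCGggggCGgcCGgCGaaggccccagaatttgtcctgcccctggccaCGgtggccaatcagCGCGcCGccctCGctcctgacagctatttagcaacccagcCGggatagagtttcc
Twist1 held 18 CG dinucleotides in this window and Twist2 held 23, where the median over 32851 windows of the same length was 6. At least as many as in Twist1 were held by 21.7% of windows. Both windows were thus rich in CG, and methylation was not measured here.

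A further list of 33 mesenchymal genes, 32 of them measured, gave 12 above background in all lines, 8 in some and 12 in none. S100a6, a relative of S100a4, measured 31244 in MTf 4 and 31618 in MTf 6, against 28097 in vector 1 and 33984 in vector 2. Tcf12, a partner of the Twist factors, and Cd44, a hyaluronan receptor, were likewise above background everywhere, as was the integrin subunit Itgb1. Among its transcription factors, Tbx15, Tbx18, Foxc2 and Osr2 were above background in all lines, and Meox1, Meox2, Osr1 and Foxd1 were examples of those in none. Eng, endoglin, a TGF-beta co-receptor, was also highest in MTf 4 and lowest in MTf 6 by its brighter probe set, at 5650 in MTf 4 and 2968 in MTf 6, against 3836 in vector 1 and 3827 in vector 2. Lum and Dcn, proteoglycans of connective tissue fibroblasts, were under the bound in all lines.

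Of the smooth muscle members, Acta2 alone was above background. Acta2, smooth muscle actin (1416454_s_at), measured 638 in MTf 4 and 594 in MTf 6, against 418 in vector 1 and 784 in vector 2, and the groups overlapped. The suffix of this probe set marks probes that can be shared with other transcripts, and the other 2 Acta2 probe sets reached at most 81.0. Tagln, the actin-binding protein SM22, reached at most 136 (vector 2), and Cnn1, calponin, at most 45.9 (vector 2). Both were thus under the bound in every line.

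Of 18 further muscle genes, 10 were above background in all lines, 1 in some and 7 in none. Most of those detected are contractile or regulatory genes that non-muscle cells also use: Cnn2 and Cnn3 (calponins), Cald1 (caldesmon), Tpm1 and Tpm2 (tropomyosins), and Srf with its cofactors Mkl1 and Mkl2. Smtn, smoothelin, and Des, named for muscle, were detected too. Des, desmin, the intermediate filament of muscle, measured 908 in MTf 4 and 583 in MTf 6, against 631 in vector 1 and 868 in vector 2. Myocd, the smooth muscle coactivator myocardin, and Myog, Myf5 and Myf6, factors of skeletal muscle, were in none. Myod1, another such factor, exceeded the bound in vector 2 alone, at 254.4 against 252.0.

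The epithelial members were low, with a keratin as the exception. Cdh1, E-cadherin (1448261_at), measured 26.0 in MTf 4 and 102 in MTf 6, against 6.80 in vector 1 and 45.6 in vector 2, under the bound in all lines. Krt8, a keratin of simple epithelium (1420647_a_at), measured 419 in MTf 4 and 520 in MTf 6, against 572 in vector 1 and 505 in vector 2, above it in all lines. By 1423691_x_at Krt8 was under the bound in vector 1, at 263 against 290. By 1435989_x_at it was above in all lines, barely so in vector 2, at 252.2 against 252.0. The suffix of these further Krt8 probe sets marks probes that can bind other transcripts. Krt18 (1448169_at), which pairs with Krt8 in filaments, reached at most 101 (vector 1). Epcam, an epithelial adhesion molecule, was read differently by its 2 probe sets. By 1447899_x_at it measured 326 in MTf 4 and 405 in MTf 6, against 131 in vector 1 and 40.1 in vector 2, above background in both clones and under it in both vector lines. By 1416579_a_at it was between 13.9 and 21.9 in all 4 lines. The suffix of the first marks probes that can bind other transcripts, and which RNA it read was not tested.

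The promoters of Epcam, Krt8 and Krt18 are shown because E-boxes of the form CACCTG, read as CAGGTG on the other strand, are the known targets of the Snail and Zeb repressors. Each line gives the 250 bases before the gene's start from RefSeq, build GRCm38.p6, 5′ to 3′ on the gene's strand, with matches to either form in capitals. Epcam lies at chr17:87635729-87635978 (+ strand), Krt8 at chr15:102004343-102004592 (- strand) and Krt18 at chr15:102027966-102028215 (+ strand).
Epcam: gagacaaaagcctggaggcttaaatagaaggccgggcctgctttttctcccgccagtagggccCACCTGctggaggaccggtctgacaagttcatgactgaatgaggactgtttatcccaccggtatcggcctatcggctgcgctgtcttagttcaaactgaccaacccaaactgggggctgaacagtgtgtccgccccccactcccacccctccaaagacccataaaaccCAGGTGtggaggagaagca
Krt8: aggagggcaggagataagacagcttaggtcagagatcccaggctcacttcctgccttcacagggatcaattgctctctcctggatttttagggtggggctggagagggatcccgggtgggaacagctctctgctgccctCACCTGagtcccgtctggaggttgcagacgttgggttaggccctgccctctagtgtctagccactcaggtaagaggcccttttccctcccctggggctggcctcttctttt
Krt18: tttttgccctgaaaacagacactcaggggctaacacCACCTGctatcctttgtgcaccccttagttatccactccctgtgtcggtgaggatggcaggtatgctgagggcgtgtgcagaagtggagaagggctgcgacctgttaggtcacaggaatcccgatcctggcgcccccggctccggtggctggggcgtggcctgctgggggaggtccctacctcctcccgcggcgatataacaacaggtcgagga
Epcam held 2 matches, with first bases at positions -187 and -19 from the start, Krt8 held 1 at -111 and Krt18 held 1 at -214. Of all 32851 windows of this length, 17.2% held at least 1 match. The 22 member genes in the RefSeq table had 31 windows, of which 6 (19.4%) held a match, close to that share: 1 window each of these 3 genes and of Snai1, Mitf and Pparg.

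Of 22 further epithelial genes, 2 were above background in all lines, 6 in some and 14 in none. Elf3 and Grhl2, epithelial transcription factors, were the 2 in all lines, with Elf3 between 361 and 454 and Grhl2 between 243 and 459. Only 1 of the 4 Grhl2 probe sets was above background in all lines. The claudins Cldn3 and Cldn4, the keratins Krt7, Krt19 and Krt20, the desmosome gene Dsp and the splicing factors Esrp1 and Esrp2 were in none. Another claudin, Cldn7, exceeded the bound in vector 1 alone, and the keratin Krt14 in MTf 4 alone. The keratin Krt5 exceeded it in MTf 6 and vector 2, and the desmosome gene Pkp3 in all lines except vector 2. Ocln, occludin of tight junctions, was above its bound in the clones alone, at 384 in MTf 4 and 214 in MTf 6, against 53.3 in vector 1 and 204 in vector 2, with MTf 6 and vector 2 close to each other. Grhl1, a relative of Grhl2, measured 163 in MTf 4 and 415 in MTf 6, against 277 in vector 1 and 73.4 in vector 2.

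Of the 4 fat cell members, 3 were above background in all lines and Cebpa in none. Pparg, the nuclear receptor that drives adipogenesis (1420715_a_at), measured 2087 in MTf 4 and 1657 in MTf 6, against 1914 in vector 1 and 2170 in vector 2. The lines lay close together and the groups overlapped. Lpl, lipoprotein lipase (1415904_at), measured 22861 in MTf 4 and 20706 in MTf 6, against 16560 in vector 1 and 16698 in vector 2, with each clone above each vector line. The second Lpl probe set, at 4386 in MTf 4 and 3215 in MTf 6, against 3618 in vector 1 and 3589 in vector 2, overlapped. Fabp4, a fatty acid carrier of fat cells and macrophages (1417023_a_at), measured 8333 in MTf 4 and 12040 in MTf 6, against 10749 in vector 1 and 9807 in vector 2. The clones held its highest and its lowest value. Cebpa, the factor that works with Pparg in mature fat cells (1418982_at), measured 31.0 in MTf 4 and 90.3 in MTf 6, against 57.9 in vector 1 and 53.7 in vector 2, under the bound in each.

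Of 15 further fat cell genes, 13 were measured: 6 were above background in all lines, 3 in some and 4 in none. Cebpb and Cebpd, which act early in adipogenesis, were in all lines, as were Acaca and Dgat2 of fatty acid and triglyceride synthesis, the lipase Lipe and the factor Ebf1. Cebpb measured 8255 in MTf 4 and 8237 in MTf 6, against 9249 in vector 1 and 7730 in vector 2. Cebpd stood out in MTf 4, at 2674, against 990.0 in MTf 6, 1042 in vector 1 and 1238 in vector 2. Adipoq and Lep, hormones of mature fat cells, and the lipid genes Cidec and Cd36 were in none. Retn, also a fat cell hormone, exceeded the bound in MTf 6 (402) and vector 2 (271). Klf15 measured 629 in MTf 4 and 136 in MTf 6, against 403 in vector 1 and 481 in vector 2, with MTf 6 alone under its bound. Slc2a4, the insulin-responsive glucose transporter, exceeded the bound in vector 2 alone.

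The 2 melanocyte members were also split. Mitf, the melanocyte factor, which other cell types use from other promoters (1455214_at), measured 523 in MTf 4 and 427 in MTf 6, against 351 in vector 1 and 570 in vector 2, with overlapping groups. Its second probe set, at 30.9 to 223, was under the bound in all lines. Kit, the receptor of Kitl, was under the bound in all lines by both probe sets, with a highest signal of 182.5 (MTf 6). Kit lies next to Pdgfra in the mouse genome, and the neighbours thus differed in detection.

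Of 10 further melanocyte genes, Pax3 and Slc45a2 were above background in all lines, 4 in some and 4 in none. Pax3, a factor of neural crest and muscle precursors, lay between 530 and 678. Sox10, a neural crest factor, measured 454 in MTf 4 and 250 in MTf 6, against 65.2 in vector 1 and 421 in vector 2. Tyrp1, Dct, Pmel and Mlana, genes of pigment synthesis and the melanosome, were in none, and Tyr, tyrosinase, exceeded the bound in MTf 6 alone.

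Endothelial and blood members were mostly under the bound. Pecam1, an adhesion molecule of endothelium, reached at most 34.2 (MTf 6). Cdh5, VE-cadherin (1422047_at), measured 287 in MTf 4 and 127 in MTf 6, against 142 in vector 1 and 157 in vector 2, above background in MTf 4 alone, and its second probe set was under the bound in all lines. Ptprc, the leukocyte antigen CD45, reached at most 88.8 (MTf 4) by 2 probe sets. Lyz2, a lysozyme of macrophages and granulocytes (1423547_at), measured 767 in MTf 4 and 466 in MTf 6, against 626 in vector 1 and 275 in vector 2, above the bound in all lines. It was thus the one blood member that all lines showed, close to the bound in vector 2, and the groups overlapped.

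**Figure D2:**
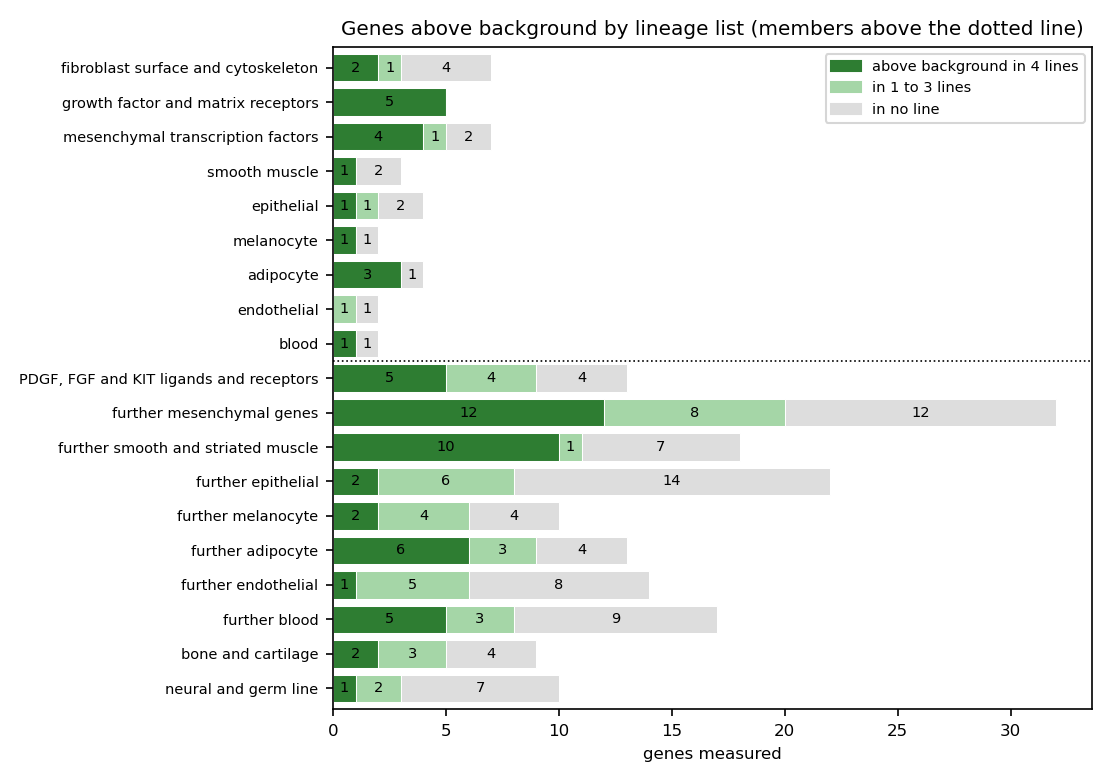
Number of measured genes above background in all 4 lines, in 1 to 3 lines or in no line, as stacked bars. The 9 member lists stand above the dotted line and the 10 further lists below it. The further lists hold more genes of the member lineages, ligands and receptors, and genes of bone, cartilage, neural cells and the germ line. Each bar starts at 0 and its length is the number of genes measured. All 5 growth factor and receptor members were above background in all lines, against 2 of 22 further epithelial and 1 of 14 further endothelial genes.

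The comparison of MTf with vector lines asks whether overexpressed melanotransferrin goes with a change of this identity. It was tested with limma on log2(signal + 32) over 22519 probe sets, those whose mean signal was at or above 206, adjusted by Benjamini and Hochberg's method, with 0.05 as the threshold. Of the 73 member probe sets 44 passed this filter, from 21 genes, and the other 15 genes had no tested probe set. Of the 44, 0 were called higher and 0 lower, where 0.00444% of all tested probe sets were called. The smallest adjusted p of a member was 1.00. At an unadjusted 0.05 there were 3 of 44, where 1.81% of all tested probe sets passed. One of the 3, of Epcam, passed the filter only through the clones. Among probe sets whose mean passed the filter in both groups there were 2 of 43 members, where 1.41% of all passed. The further lists had 126 tested probe sets, of which 0 were called. Under an unadjusted 0.05 were 5 (of Ddr1, Cald1, Cnn2, Slc2a4 and Dgat2), with Slc2a4 past the filter through the vector lines alone. An exact permutation test of 2 lines against 2 cannot give a two-sided p below 0.333, so none could pass.

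The members' differences were about as large as those of other genes. The median absolute log2 difference was 0.14 over the members and 0.15 over all tested probe sets. The median signed difference was -0.04 over the members, with 18 positive and 26 negative, and -0.01 over all. That sign depended on single lines: the members' median was 0.05 without vector 2 and 0.13 without MTf 6. The groups did not overlap for 7 member probe sets (15.9%), where 25.8% of all tested probe sets did not. Of these 7, 3 were higher in both clones (S100a4, Lpl and Epcam), against 12.1% of all, and 4 lower (Pdgfrb, Twist2, Zeb2 and Fabp4), against 13.6%. Without Epcam, and over probe sets past the filter in both groups, 6 of 43 did not overlap, where 24.4% of all did not.

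For Epcam by 1447899_x_at both vector signals were under the bound, so only a limit can be given. The clones' geometric mean, 363, was 1.34-fold the geometric mean of the vector lines' bounds, 270. This probe set passed the filter only through the clones, so its fit is not read as a result. Zeb2 by 1434298_at had the most negative member difference, -0.79 (95% interval -1.43 to -0.15, unadjusted p = 0.0222 and adjusted p = 1.00, limma). It measured 1327 in MTf 4 and 1168 in MTf 6, against 1690 in vector 1 and 2808 in vector 2. The other 3 tested Zeb2 probe sets had differences of 0.11, 0.10 and -0.23 and overlapped between the groups.

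Lpl by 1415904_at differed by 0.39 (95% interval 0.02 to 0.76, unadjusted p = 0.0429 and adjusted p = 1.00, limma), and its second probe set by 0.06. Pdgfrb had differences of -0.47 (95% interval -1.02 to 0.07) and -0.38 by its 2 probe sets. Twist2, with 1 probe set, had -0.42 (95% interval -0.87 to 0.02). S100a4 had 0.13 (95% interval -0.19 to 0.45), which became -0.017 after quantile normalization. Fabp4 by 1451263_a_at had -0.50 (95% interval -1.08 to 0.08), while its other 3 probe sets had -0.04, 0.24 and 0.29.

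Snai2 differed by -0.0043 (95% interval -0.41 to 0.40) and Vim by 0.13 (95% interval -0.23 to 0.49) by their brighter probe sets. Quantile normalization gave -0.024 for Snai2 and 0.0035 for Vim. For Pdgfra the interval was wide, -1.22 to 1.29 around 0.04 (0.07 after quantile normalization), and a change of 2-fold either way lies within it. Of the 15 genes without a tested probe set 14 were under the bound in all lines, and Cdh5 exceeded it in MTf 4 alone.

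**Figure D3:**
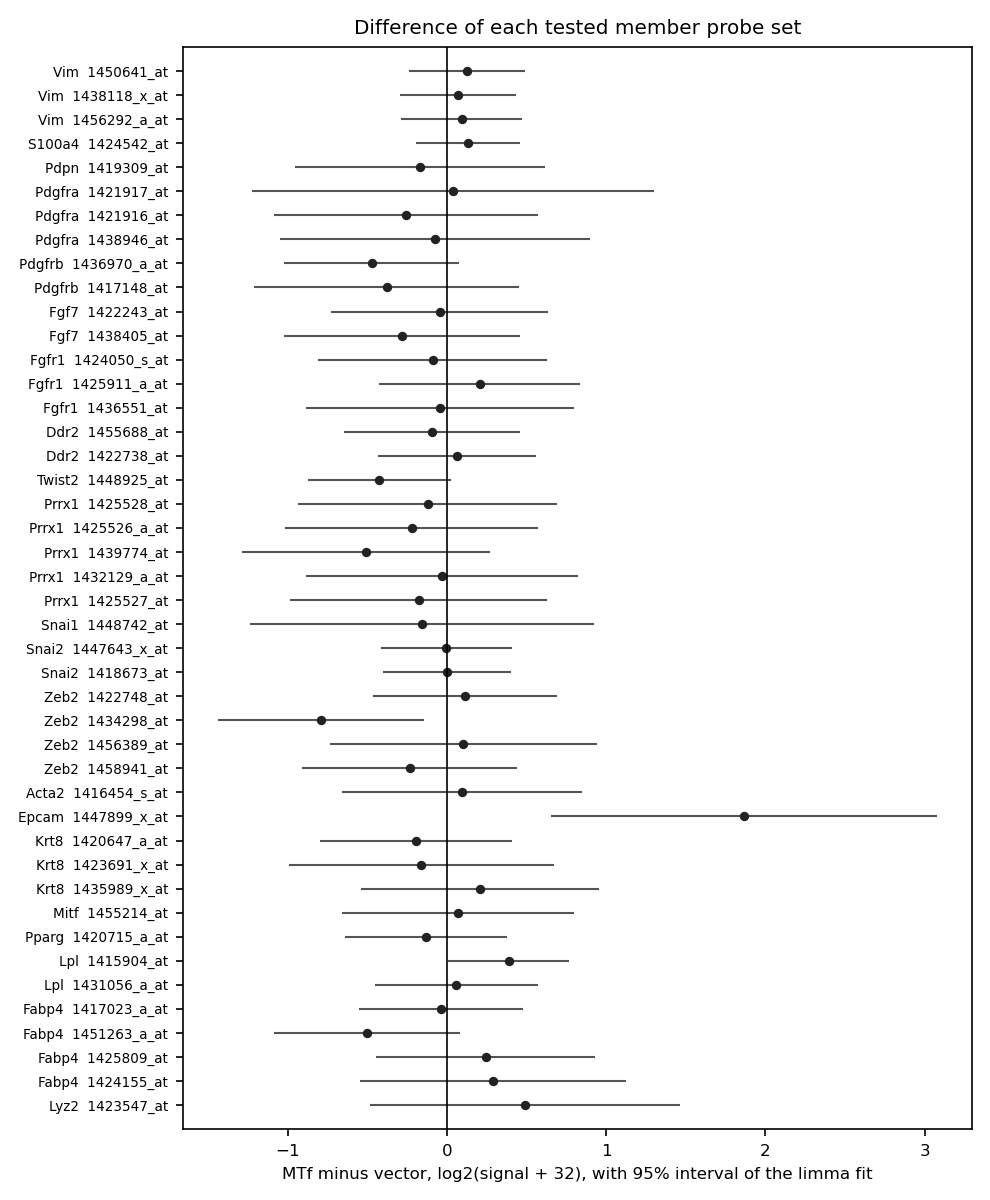
MTf minus vector difference of each of the 44 tested member probe sets on the log2(signal + 32) scale. Points are the difference between the means of 2 lines per group and bars the 95% interval of the limma fit. Of 44 intervals 41 include 0, and those of Epcam, Zeb2 by 1434298_at and Lpl by 1415904_at, which do not, failed the adjusted threshold. Both vector signals of Epcam were under the background bound, so its point is not a measured size.

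Lines of the same group also differed from each other. The range over the 4 lines had a median of 0.72 on the log2 scale over the 44 member probe sets and 0.51 over all tested probe sets. Among probe sets above background in both lines, MTf 4 and MTf 6 were at least 2-fold apart for 2 of 41 members, 1 each of Pdgfra and Zeb2, where 2.92% of all were. Vector 1 and vector 2 were at least 2-fold apart for 2 of 38, 1 each of Prrx1 and Lyz2, where 1.38% of all were. Counted over all 44 tested, signals under the bound included, the numbers were 3 between the clones, where 5.26% of all were, and 4 between the vector lines, where 3.76% of all were. With 1 array per line there is no replicate check and no test of these differences.

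Pdgfra and Fgf7 had the same highest and lowest line by every tested probe set. MTf 4 was highest and MTf 6 lowest of the 4 lines for 10 of the 44 member probe sets (22.7%), where 13.2% of all tested were. These were all 3 Pdgfra and both Fgf7 probe sets, 1 of 3 of Fgfr1, 1 of 5 of Prrx1, 1 of 4 of Zeb2, 1 of 3 of Vim and 1 of 2 of Lpl. For Pdgfra the range over the lines was 1.83, 0.98 and 1.09 on the log2 scale by its 3 probe sets, and for Fgf7 0.79 and 0.89 by its 2.

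Prrx1 followed a second order. Of its 5 tested probe sets vector 2 was highest in 4 and MTf 6 lowest in 4, with ranges from 0.90 to 1.16 on the log2 scale. Zeb2 was highest in vector 2 by 3 of 4 tested probe sets. Snai2 ranged by 0.35 and 0.19 and Vim by 0.26 to 0.34, less than the 0.51 median of all tested probe sets. Their probe sets are among the brightest, from the 97.3 to the 99.9 percentile of signal. Ranges were not compared at like brightness. Probe sets of 1 gene share their array and are not replicates.

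**Figure D4:**
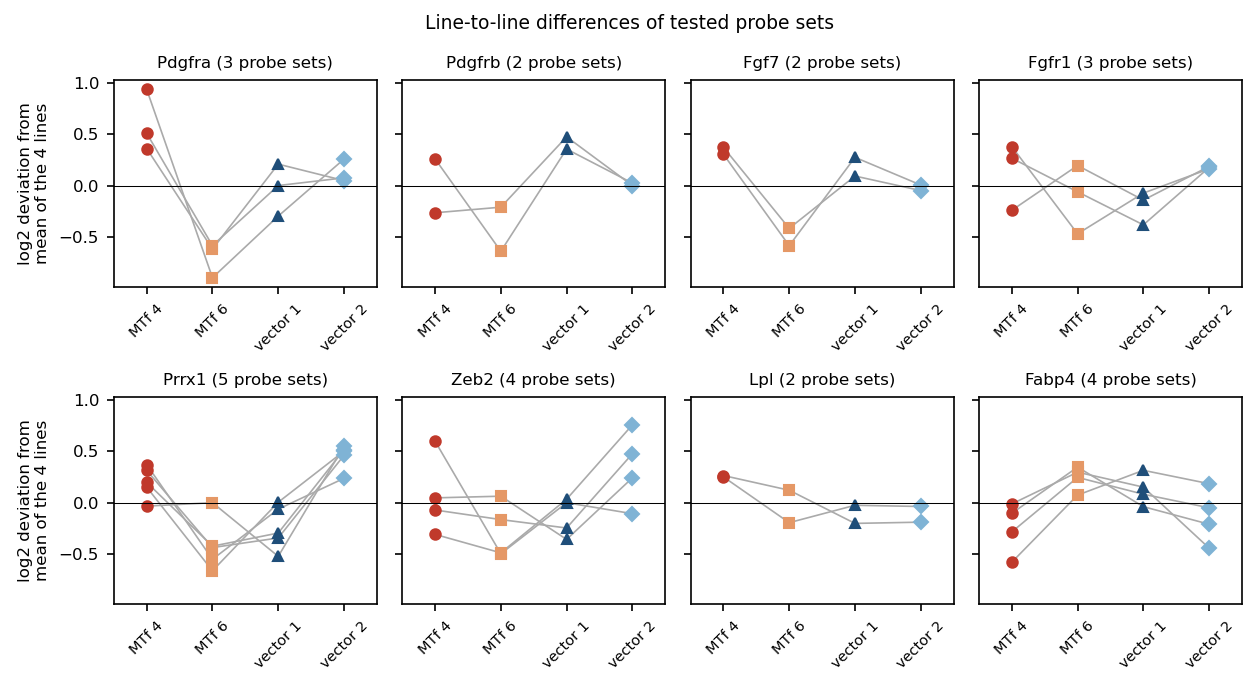
Deviation of each line from the mean of the 4 lines, log2(signal + 32), for the tested probe sets of 8 members, each grey line joining the values of 1 probe set. Pdgfra and Fgf7 are highest in MTf 4 and lowest in MTf 6 by every tested probe set. Prrx1 is highest in vector 2 by 4 of 5, and the probe sets of Zeb2 and Fabp4 differ from each other in order.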

How the data were processed

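Total RNA of 2 MTf and 2 vector lines was measured on 1 array each. The deposited intensity values, 1 per probe set and array, were made by the authors with GCOS 1.3, per the submitters' processing notes. Its settings were not given in the sources used here. The labels call the MTf lines clones and do not say whether the vector lines are clones or separate cultures. The p-values cover only the spread among the 4 arrays, whose number limits the precision. Values were used as deposited, since trimmed means (2% off each end) were equal.

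Of 45101 probe sets in the file 64 were controls, and 34945 had 1 annotated gene. Signals were tested as log2(signal + 32), which understates changes of dim probe sets, with limma 3.58.1 in R 4.3.3 (lmFit, eBayes with trend), after removing probe sets with a mean signal under the median of 206. The fit was run on simulated data with the same spread for every probe set. That setting differs from these arrays, so it does not show how the fit performs on them. Promoter sequences came from RefSeq and held 22 of the 36 genes. Of 167 further genes 158 were measured.

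All members were named, each represented by its brightest probe set on average. From each further list the genes named were mainly those best detected in all lines and those with the widest range. Others were named after their values were seen, as were the genes of the plot of line deviations. The members and lists were chosen with earlier results of these data known. Alternatives changed the offset, filter, trend, normalization, background bound and lines used. Some items are not reported here.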

Additional observations from a re-analysis of the deposited data

How the results depend on the processing

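No paired analysis was possible because the clones are numbered 4 and 6 and the vector lines 1 and 2, so the groups share no number. The count of members called was 0 under every alternative run. Over all probe sets 1 was called, against 0 without the filter and 0 without the trend. With 1 line left out that count lay between 1 and 22 (22 without MTf 4, 6 without MTf 6, 2 without vector 1), in fits where the lone line is assumed to vary like the other group. The members' median difference lay between -0.18 and 0.13 with 1 line left out. The genes above background in all lines numbered 16 to 19 under the alternatives, against 18. Lyz2 dropped out at the 99th percentile, and Acta2 and Mitf when most probe sets of a gene had to pass. Acta2 also dropped out without probe sets that may share probes with other transcripts, an alternative chosen after seeing the data. Pdpn came in without vector 1 or at the array median. Without the filter, 12 member probe sets were 2-fold apart between the clones (3 with it) and 10 between the vector lines (4 with it), since dim probe sets enter. With an offset of 64, 2 were apart between the vector lines. Above background in both lines there were 2 in each group, a restriction chosen after seeing the data, as was that to probe sets past the filter in both groups. Over 21 members tested, the sign of the difference turned in 1 of 105 values under settings that keep all lines, S100a4 at -0.017 after quantile normalization. With 1 line left out it turned for 13 of the 21 genes, none of them called. The ranges were -0.0027 to 0.26 for Vim, -0.87 to 0.95 for Pdgfra, -0.44 to 0.35 for Fgf7, -0.51 to 0.33 for Fgfr1, -0.35 to 0.16 for Ddr2, -0.52 to 0.28 for Prrx1 and -0.18 to 0.17 for Snai2. They were -0.19 to 0.41 for Zeb2, -0.33 to 0.52 for Acta2, -0.25 to 0.40 for Mitf, -0.29 to 0.033 for Pparg, -0.30 to 0.23 for Fabp4 and -0.060 to 1.04 for Lyz2. Where no cause is given, the cause was not tested. Statements on the 14 undetected genes are limited, since a low level of RNA may lie under the bound. Their highest signals ran from 34.2 (Pecam1) to 182.5 (Kit), so not all lay near it. How well their probe sets read the transcripts was not tested.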

Other observations

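Genes of bone and cartilage, a further mesenchymal fate, were detected in part. Of 12 listed genes 9 were measured: 2 were above background in all lines, 3 in some and 4 in none. Sox9, the master factor of cartilage (1451538_at), measured 2147 in MTf 4 and 1076 in MTf 6, against 835 in vector 1 and 1671 in vector 2. A second Sox9 probe set, at 1537 in MTf 4 and 797 in MTf 6, against 880 in vector 1 and 1157 in vector 2, likewise had MTf 4 highest, followed by vector 2. Sp7, osterix, a bone factor, measured 353 in MTf 4 and 360 in MTf 6, against 381 in vector 1 and 552 in vector 2. Col2a1, the collagen of cartilage, was under the bound in all lines.

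Of 19 further blood genes 17 were measured, with 5 above background in all lines, 3 in some and 9 in none. Csf1r, the receptor of the macrophage growth factor, measured 762 in MTf 4 and 289 in MTf 6, against 698 in vector 1 and 512 in vector 2. Cd79a, of the B cell receptor, measured 2375 in MTf 4 and 1364 in MTf 6, against 918 in vector 1 and 1734 in vector 2. Laptm5 measured 329 in MTf 4 and 519 in MTf 6, against 895 in vector 1 and 565 in vector 2. The groups overlapped for Csf1r and Cd79a, while for Laptm5 each clone was below each vector line. Coro1a and the macrophage gene Adgre1 were also above background in all lines, Adgre1 barely so in MTf 4, at 229 against 223. Cd68 exceeded the bound in MTf 4 and vector 2, and Cd8a and Spi1 in the clones alone. The T cell gene Cd3e, the macrophage gene Tyrobp and Fcer1g were in none. Of 14 further endothelial genes Egfl7 alone was above background in all lines, 5 in some and 8 in none, and Kdr, a VEGF receptor, measured 172 in MTf 4 and 358 in MTf 6, against 318 in vector 1 and 276 in vector 2. Of 10 measured genes of neural cells and the germ line 1, Mbp, was in all lines, 2 in some and 7 in none. Several of these genes were detected by a minority of their probe sets. Above background in all lines were 1 of 8 probe sets of Mbp, 1 of 4 of Egfl7, 1 of 5 of Laptm5 and 1 of 3 of Csf1r. Of the genes above background in some lines, several exceeded the bound in MTf 6 alone, where the bound was lowest.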
